A study of Homo sapiens with 6 samples.

Results

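The genes described here are 109 long intergenic noncoding RNA genes, those whose symbol is LINC followed by a number, that were expressed in differentiating human neuroblastoma cells. They were chosen by measured values: a gene was kept where its FPKM (fragments scaled to the length of the gene and to the total of the library) had a mean of at least 1 over all 6 libraries, and LINC02381, the gene that was knocked down, was left out. Such a symbol was carried by 2270 of the 60676 genes measured, of which 1517 had 0 counts in every library and 753 had a count in at least 1. The choice used the mean over both groups together, so the levels below are given as a description.

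RNA was sequenced from SK-N-BE cells, an established neuroblastoma line, after 1.5 days in differentiation medium with 2.5% serum and 10 μM retinoic acid, which both groups received. The control group was treated with a scrambled siRNA (si-SCR, 3 libraries), and the other with siRNAs against CyCoNP, the lncRNA encoded by LINC02381 (si-CyCoNP, 3 libraries). All libraries came from 1 cell line, and nothing in the labels says whether replicates were separate cultures, so p-values measure the spread between these libraries. The comparison asks which intergenic noncoding genes differed in level once CyCoNP had been depleted.

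A long intergenic noncoding RNA (lincRNA) gene is transcribed from its own stretch of the genome between protein-coding genes, and its RNA is usually capped, often spliced and polyadenylated, and carries no long reading frame. Such RNAs are as a rule less abundant and more restricted to cell types than messenger RNAs, and many stay in the nucleus. Their genes often lie close to genes of developmental regulators, and the symbol LINC only names a locus: it says nothing of function, and for most of the genes below none is given here.

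The libraries held between 3762009 and 4799407 counted fragments. LINC02381 had 14.9, 12.9 and 15.4 FPKM in si-SCR against 0.973, 1.65 and 0.676 in si-CyCoNP, a log2 fold change of -3.78 (SE 0.190, edgeR quasi-likelihood test, adjusted p = 6.84e-14). The 9 adrenergic neuroblast markers examined were all at 1 FPKM or more, with a sum of 2100 to 2264 FPKM in si-SCR and 1910 to 2061 in si-CyCoNP. Of these PHOX2A was called lower (log2 fold change -1.13, adjusted p = 4.49e-10), HAND2 and ELAVL4 had log2 fold changes of -0.61 and -0.62 (adjusted p = 4.97e-07 and 2.51e-05), and MYCN had one of 0.84 (adjusted p = 2.65e-09). Markers of blood and endothelium summed to at most 0.0513 FPKM in any library. The Schwann cell marker SOX10 was listed at 0 in every library. Of 4 fibroblast or mesenchymal markers COL1A1 and COL3A1 were higher in si-CyCoNP, DCN was lower at 1.77 against 2.997 FPKM, and PRRX1 was listed at 0, for a sum of 3.04 to 4.64 FPKM in si-SCR and 4.04 to 4.69 in si-CyCoNP. The part of these marker changes in the results below was not tested.

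Most of the 109 genes were expressed at a low level. The median of the mean FPKM was 1.94 and the range 1.004 to 28.6, with 58 genes under 2 FPKM and 22 at 5 FPKM or more. The counts summed over the 6 libraries had a median of 149 and ranged from 7 to 13306. In GENCODE 104 of the genes were annotated as lncRNA and 5 as pseudogenes. All 109 were tested, but 22 of them had 1 group mean under 1 FPKM, 12 in si-SCR and 10 in si-CyCoNP, and so were members through the other group.

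The gene with the highest level was LINC01116 on chromosome 2, in the neighbourhood of the HOXD cluster, with 23.8, 27.9 and 33.6 FPKM in si-SCR against 29.0, 24.6 and 32.8 in si-CyCoNP. Its groups overlapped, and the log2 fold change was -0.05 (SE 0.124, adjusted p = 0.807), a sign that turned under 5 of the alternatives. Its counts and FPKM imply a length of 2126 bases, where GENCODE v44 gives 4636 exonic bases, so its rank rests on the shorter length. LINC03051 followed with a mean of 25.0 ± 6.51 FPKM in si-SCR and 17.6 ± 3.18 in si-CyCoNP, and LINC01587 with 15.4 ± 6.30 and 26.4 ± 4.92 (SD, n = 3). The order of these 3 genes differed between the groups. In si-SCR every LINC01116 library lay above every LINC01587 library, which reached 22.6 FPKM, and LINC03051 overlapped both. In si-CyCoNP LINC01116 and LINC01587 overlapped, the latter reaching 31.5 FPKM, and every LINC03051 library lay below both.

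LINC00632 on the X chromosome came next by FPKM and first by counts. It is the locus that gives rise to the circular RNA known as CDR1 antisense, a sponge for a microRNA in neurons, and counts on the gene do not separate the circular from the linear RNA. It had 16.6, 19.02 and 18.3 FPKM in si-SCR against 17.5, 16.1 and 18.9 in si-CyCoNP. The groups overlapped, with a log2 fold change of -0.11 (SE 0.0816, adjusted p = 0.362). The most precisely measured of the 109 genes thus differed by less than its replicates did.

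The remaining genes of the 10 highest were LINC01695, LINC02691, LINC00641, LINC00674, LINC01686 and LINC00888. LINC01695 had 12.7, 12.6 and 8.77 FPKM in si-SCR against 13.3, 18.0 and 9.48 in si-CyCoNP, and LINC00641 had 9.73 ± 1.31 and 11.2 ± 0.969. The groups of both overlapped and neither passed the test (adjusted p = 0.401 and 0.440). LINC00674, annotated as a transcribed pseudogene, had 9.26 ± 2.61 and 11.3 ± 0.535 FPKM (adjusted p = 0.605). GENCODE v44 gives it 160 exonic bases, but its counts and FPKM imply a length of 734 bases.

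Together the 109 genes took a small and slightly different share of each library. It was 0.171%, 0.175% and 0.175% of the counts in si-SCR against 0.185%, 0.188% and 0.182% in si-CyCoNP, so the groups did not overlap. The summed FPKM of the members did overlap, at 388.8, 389.0 and 400.8 in si-SCR against 411.0, 434.1 and 385.2 in si-CyCoNP. Shares rest on library totals, and with these alone the median log2 fold change of all genes tested was 0.07. Without LINC00632 the shares were 0.1203 to 0.1227% in si-SCR and 0.127 to 0.141% in si-CyCoNP. At least 1 count was seen for 106 to 107 of the 109 genes in the si-SCR libraries and 107 to 109 in the si-CyCoNP libraries. Fewer cells with such an RNA and less of it per cell cannot be told apart in these bulk libraries.

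A gene was called where the adjusted p was under 0.05 and the log2 fold change above 1 or below -1, with p adjusted over the 13966 genes tested. Of the 109 LINC genes 7 were called higher in si-CyCoNP (6.42%, against 2.28% of all genes tested) and 5 lower (4.59%, against 2.98%). By the adjusted p alone 18 were higher (16.5%, against 14.2%) and 11 lower (10.1%, against 14.2%). The si-CyCoNP libraries lay wholly above the si-SCR libraries for 20 genes (18.3%, against 20.1%) and wholly below for 14 (12.8%, against 20.0%). Of the 12 called genes 7 were among the 22 with a group mean under 1 FPKM, so they met the rule through the group in which they were high, and their calls are not independent of the rule.

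The members as a whole were not shifted far. The median log2 fold change was 0.09, against 0.01 over all genes tested, with 57 values above 0 and 52 below. The number called higher was 4 with DESeq2 and 3 without si-SCR replicate 1, and the number called lower was 4 in both. On log2(FPKM + 1) with limma 1 gene was called higher and 3 lower, and with glmTreat, which takes a log2 value of 1 as its null, 0 were higher and 3 lower (2 and 4 at an unadjusted p under 0.05).

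**Figure D1:**
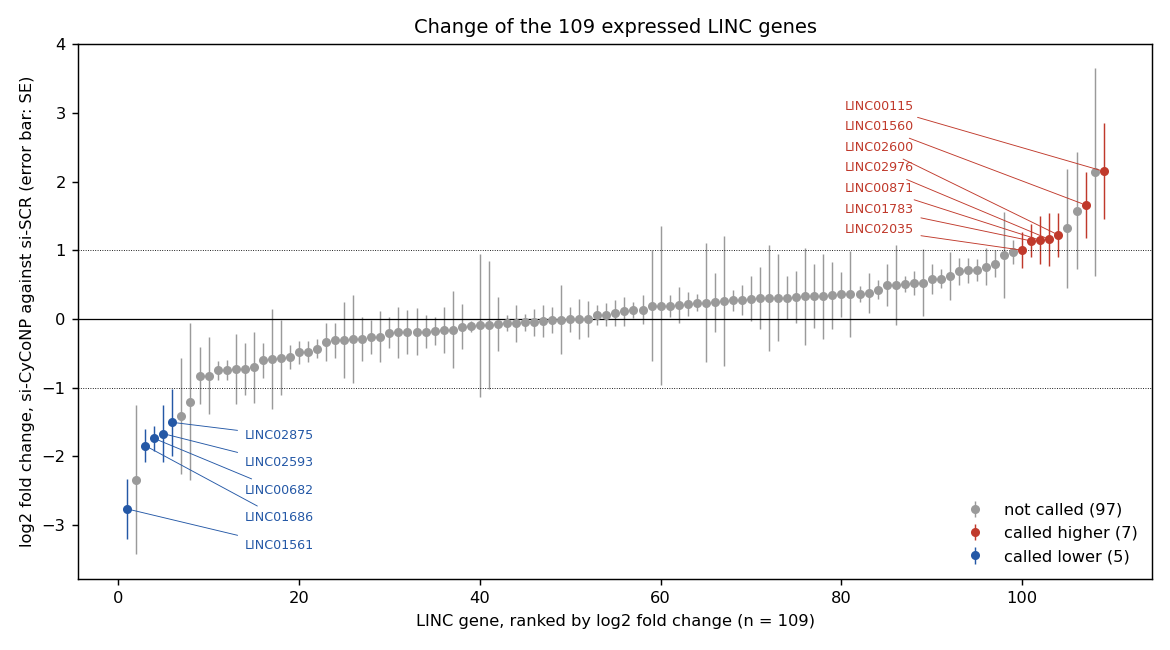
The log2 fold change of each of the 109 LINC genes between 3 si-CyCoNP and 3 si-SCR libraries is plotted in rank order with its SE. The 7 genes called higher and 5 called lower are named, and the uncoloured points beyond the dotted lines at 1 and -1 are 6 genes with 7 to 22 summed counts that did not pass the test.

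The 5 genes that fell were LINC01561, LINC01686, LINC00682, LINC02593 and LINC02875. All had groups that did not overlap, as the plot of FPKM by library shows.

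LINC01561 is an unspliced gene of 2176 bases on the plus strand of chromosome 10 (GRCh38, 120597949 to 120600124, ENSG00000177234). It had 5.03, 4.40 and 2.402 FPKM in si-SCR against 0.862, 0.757 and 0.111 in si-CyCoNP, from 47, 36 and 25 counts against 9, 7 and 1. All si-CyCoNP libraries lay under the lowest si-SCR library, and the log2 fold change was -2.77 (SE 0.437, adjusted p = 1.79e-05), the lowest among the 109. The call held under all 15 other fits (-3.19 to -1.64).

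The gene starts 5.88 kb past the end of PLPP4, which encodes a phospholipid phosphatase and lies on the same strand. PLPP4 fell from 17.1 ± 4.91 to 2.27 ± 0.248 FPKM (SD, n = 3), a log2 fold change of -2.96 (SE 0.202, adjusted p = 1.65e-11). The log2 fold changes of the neighbours differed by less than the SE of LINC01561. Whether RNA that reads on past PLPP4 adds to the counts of LINC01561 was not tested.

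LINC01686 (chromosome 1, 182615254 to 182616629, plus strand, 1 exon, ENSG00000261504) was the only called gene among the 10 highest. It had 15.6, 18.0 and 12.6 FPKM in si-SCR against 6.21, 2.91 and 4.03 in si-CyCoNP. The groups stood clearly apart, with a log2 fold change of -1.85 (SE 0.239, adjusted p = 9.33e-07). The gene lies between RGS16 and RGS8, paralogous regulators of G-protein signalling on the opposite strand. RGS16, the nearer at 10.9 kb, went from 339.1 ± 42.1 to 208.1 ± 8.20 FPKM (log2 fold change -0.77, adjusted p = 4.81e-08). RGS8, 25.2 kb away and singled out after its values were seen, fell from 16.6 ± 1.58 to 0.622 ± 0.0513 FPKM, a log2 fold change of -4.79 (SE 0.158, adjusted p = 9.29e-18).

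LINC00682 is a gene of 2 exons on the minus strand of chromosome 4 (41872741 to 41882955, ENSG00000245870). It had 9.37, 8.04 and 7.57 FPKM in si-SCR against 2.67, 2.72 and 2.41 in si-CyCoNP. The replicates of each group were close, and the log2 fold change of -1.74 had the smallest adjusted p of the 109 genes (SE 0.185, 3.86e-08). No tested coding gene lay within 50 kb, and the call held in all 15 other fits.

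LINC02593 (chromosome 1, 916865 to 921016, minus strand, ENSG00000223764) had 3.03, 1.15 and 1.46 FPKM in si-SCR against 1.00, 0.227 and 0.581 in si-CyCoNP. The groups lay next to each other without overlap, and the log2 fold change was -1.67 (SE 0.413, adjusted p = 0.00283). It points away from SAMD11, a gene for a SAM domain protein whose start is 2.91 kb off, and SAMD11 fell as well, from 4.70 ± 2.16 to 1.94 ± 0.854 FPKM (log2 fold change -1.33, SE 0.292, adjusted p = 0.000972). Of the next coding genes KLHL17 had a log2 fold change of -0.67 (adjusted p = 0.0286) and NOC2L of 0.25 (adjusted p = 0.0436). The call of LINC02593 was lost with limma on log2(FPKM + 1) (adjusted p = 0.1203), and that of SAMD11 with DESeq2 (adjusted p = 0.0579).

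LINC02875 (chromosome 17, 61411751 to 61413280, plus strand, 1 exon, ENSG00000187013) had 2.74, 1.74 and 2.05 FPKM in si-SCR against 0.817, 0.923 and 0.631 in si-CyCoNP. The si-CyCoNP libraries were all under 1 FPKM, and the log2 fold change was -1.51 (SE 0.485, adjusted p = 0.0198). With 59 counts in all the call was not firm: the adjusted p was 0.0565 with DESeq2, 0.109 without si-SCR replicate 1, and 0.0511 and 0.0687 when replicate 1 or 3 of si-CyCoNP was left out. Its neighbour on the same strand, 2.29 kb before its start, is TBX2, a T-box transcription factor of the adrenergic neuroblastoma programme. TBX2 went from 75.3 ± 11.3 to 47.3 ± 9.61 FPKM, a log2 fold change of -0.74 (SE 0.114, adjusted p = 1.38e-05).

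**Figure D2:**
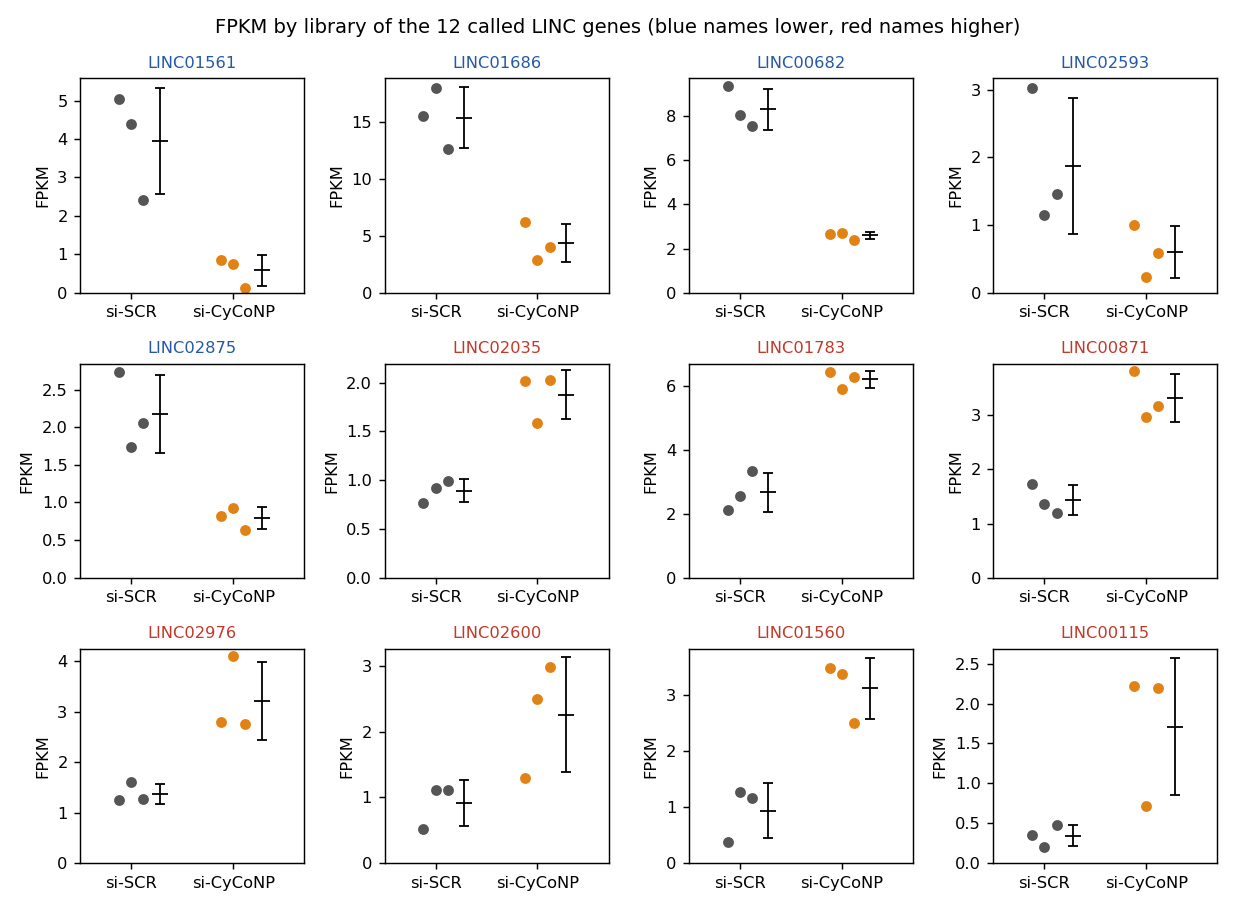
FPKM in each of the 3 si-SCR and 3 si-CyCoNP libraries is shown for the 12 called LINC genes, with the mean and SD beside the points; each panel starts at 0 and has its own scale. In every panel the groups do not overlap, and the levels range from 0.111 FPKM for LINC01561 to 18.0 FPKM for LINC01686.

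The 7 genes that rose ranked between 24 and 106 of the 109 by mean FPKM. LINC01783 (chromosome 1, 16533886 to 16535649, minus strand, ENSG00000233421) had 2.14, 2.57 and 3.34 FPKM in si-SCR against 6.45, 5.92 and 6.30 in si-CyCoNP. All si-CyCoNP libraries lay well above the highest control, with a log2 fold change of 1.14 (SE 0.240, adjusted p = 0.000655), and the adjusted p was under 0.05 in all 15 other fits. The nearest tested coding gene, NBPF1, a member of a multicopy family, was 26.7 kb away and had 1.49 ± 0.164 and 1.44 ± 0.208 FPKM.

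LINC02600 (chromosome 4, 3758748 to 3763390, minus strand, ENSG00000250986) had 0.515, 1.12 and 1.11 FPKM in si-SCR against 1.29, 2.50 and 2.98 in si-CyCoNP. The lowest si-CyCoNP library was just above the highest control, and the log2 fold change was 1.22 (SE 0.326, adjusted p = 0.00533). The gene faces away from ADRA2C, whose start is 2.96 kb off and which encodes the alpha-2C adrenergic receptor. ADRA2C rose from 4.17 ± 1.29 to 9.97 ± 1.32 FPKM (log2 fold change 1.18, SE 0.208, adjusted p = 8.00e-05). The call of LINC02600 ended when si-SCR replicate 1 or si-CyCoNP replicate 3 was left out, where the log2 fold change was 0.95 and 0.96, and the gene did not pass limma on log2(FPKM + 0.1) (adjusted p = 0.0937).

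LINC01560 (chromosome X, 47483571 to 47484823, plus strand, 1 exon, ENSG00000196741) had 0.372, 1.27 and 1.17 FPKM in si-SCR against 3.49, 3.38 and 2.50 in si-CyCoNP. The control counts were only 2, 6 and 7, against 21, 18 and 13, and the log2 fold change was 1.66 (SE 0.482, adjusted p = 0.0102). Without si-SCR replicate 1 the adjusted p was 0.0591. It lies 0.349 kb from the start of ZNF41, a KRAB zinc finger gene on the other strand, which went from 1.85 ± 0.997 to 3.66 ± 0.0840 FPKM (log2 fold change 0.89, adjusted p = 0.00669).

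LINC02976 (chromosome 6, 42940364 to 42948360, plus strand, ENSG00000231113) had 1.25, 1.61 and 1.26 FPKM in si-SCR against 2.797, 4.11 and 2.75 in si-CyCoNP, a log2 fold change of 1.16 (SE 0.389, adjusted p = 0.0257). The groups stood apart, but the call was lost with DESeq2 (adjusted p = 0.0815) and without si-SCR replicate 1, si-SCR replicate 3 or si-CyCoNP replicate 2 (0.0668, 0.0595 and 0.133). CNPY3, a chaperone of Toll-like receptors, ends 1.07 kb before it on the same strand and went from 21.0 ± 2.77 to 31.1 ± 2.85 FPKM (log2 fold change 0.49, adjusted p = 0.00335). PEX6, a peroxisome biogenesis gene 15.5 kb away, had a log2 fold change of 0.74 (adjusted p = 0.00142).

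LINC00871 (chromosome 14, 45891087 to 46501903, plus strand, ENSG00000258700) is a gene of 5 exons. It had 1.73, 1.37 and 1.20 FPKM in si-SCR against 3.82, 2.96 and 3.18 in si-CyCoNP. Each si-CyCoNP library exceeded each control, with a log2 fold change of 1.15 (SE 0.351, adjusted p = 0.0145), which was lost with DESeq2 (0.0543) and without si-CyCoNP replicate 1 (0.0725). Without si-SCR replicate 3 the log2 fold change was 0.998, just under the threshold. Its nearest tested coding gene lay 637547 bases away.

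LINC02035 (chromosome 3, 122886941 to 122892416, plus strand, 1 exon, ENSG00000273033) had 0.765, 0.922 and 0.993 FPKM in si-SCR against 2.02, 1.59 and 2.03 in si-CyCoNP. The groups were well separated, but the log2 fold change of 1.00 (SE 0.259, adjusted p = 0.00421) lay at the fold threshold, so that the size factors of DESeq2 in the same fit were enough to end the call. It was also under the threshold when si-SCR replicate 1 was left out (0.91), or replicate 1 or 3 of si-CyCoNP (0.94 in both cases). The adjusted p was under 0.05 in all 15 other fits. Its neighbour on the same strand, SLC49A4, was not past the threshold (log2 fold change 0.21, adjusted p = 0.427), and SEMA5B, a semaphorin gene 16.7 kb away, had one of 0.99 (adjusted p = 0.009998).

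LINC00115 (chromosome 1, 824228 to 827539, minus strand, 1 exon, ENSG00000225880) had the highest log2 fold change and the least data. It had 2, 1 and 3 counts in si-SCR against 14, 4 and 12 in si-CyCoNP, or 0.354, 0.202 and 0.476 against 2.21, 0.715 and 2.198 FPKM. The groups did not overlap, but every control library was at or under the floor of 3 counts, and the fitted value of 2.15 (SE 0.698, adjusted p = 0.0208) depends on the prior count. The gene shares its locus with another gene on the same strand and with LINC01128 on the opposite strand, and the call was lost with DESeq2 (adjusted p = 0.0587) and without si-SCR replicate 2, si-CyCoNP replicate 1 or si-CyCoNP replicate 3 (0.0730, 0.103 and 0.0887).

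Past the adjusted p but under the fold threshold were 11 further genes that rose and 6 that fell. LINC01694 on chromosome 21 came nearest to the threshold, with 1.86, 2.13 and 1.88 FPKM in si-SCR against 3.63, 4.89 and 3.56 in si-CyCoNP. Its groups were far apart (log2 fold change 0.97, SE 0.171, adjusted p = 7.28e-05), and it was called with library totals alone or without si-SCR replicate 2, si-CyCoNP replicate 1 or si-CyCoNP replicate 3. LINC02623 had 6.25, 4.50 and 5.73 FPKM in si-SCR against 9.97, 11.1 and 9.29 in si-CyCoNP (log2 fold change 0.81, adjusted p = 0.00304). LINC01234 had close replicates, at 1.27 ± 0.0667 and 2.18 ± 0.0776 FPKM (log2 fold change 0.72, adjusted p = 0.00108). Among the more abundant ones LINC00839 rose from 5.51 ± 0.432 to 8.23 ± 0.559 FPKM (log2 fold change 0.51, SE 0.111, adjusted p = 0.000932).

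LINC01587 passed the test with overlapping groups. It had 11.2, 12.3 and 22.6 FPKM in si-SCR against 25.8, 31.5 and 21.8 in si-CyCoNP, so that 1 control library exceeded the lowest si-CyCoNP library (log2 fold change 0.69, SE 0.195, adjusted p = 0.00811). Without si-SCR replicate 3 it was called higher, and without si-CyCoNP replicate 2 it did not pass (adjusted p = 0.0733), nor on log2(FPKM + 1) or log2(FPKM + 0.1) (0.0830 and 0.0812). The others that rose were LINC00963, LINC00667, LINC01278, LINC00205, LINC01963 and LINC02476, with log2 fold changes of 0.37, 0.43, 0.52, 0.59, 0.71 and 0.76. With DESeq2 LINC00963, LINC00667, LINC01278 and LINC02476 did not pass (adjusted p = 0.0574, 0.0833, 0.0708 and 0.104), and each lost the adjusted p in 5 to 7 of 15 other fits.

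Of the 6 that fell LINC02904 had 7.58, 7.67 and 9.36 FPKM in si-SCR against 5.05, 5.30 and 5.02 in si-CyCoNP (log2 fold change -0.75, SE 0.142, adjusted p = 0.000189). LINC02691, on chromosome 14, had 13.0, 14.6 and 15.04 against 7.98, 10.1 and 8.62 FPKM (log2 fold change -0.74, SE 0.145, adjusted p = 0.000254). The groups of both were clearly apart. LINC02268 had 7.84 ± 0.323 and 5.90 ± 0.332 FPKM (log2 fold change -0.48, adjusted p = 0.0160), and LINC00221, which overlaps immunoglobulin heavy chain segments on the opposite strand, had 6.40 ± 0.420 and 4.97 ± 0.229 (log2 fold change -0.43, adjusted p = 0.0218). LINC03051 passed with overlapping groups (log2 fold change -0.55, adjusted p = 0.0195), a call lost in 5 of 15 other fits.

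LINC00888 hosts the small nucleolar RNAs SNORA63D and SNORA63E in its annotation. It had 10.6, 10.8 and 10.99 FPKM in si-SCR against 7.14, 6.96 and 10.2 in si-CyCoNP, so 1 si-CyCoNP library lay just under the controls (log2 fold change -0.49, SE 0.173, adjusted p = 0.0348). The adjusted p was over 0.05 in 8 of 15 other fits, DESeq2 among them (0.0860). LINC00960, whose span holds the microRNA gene MIR4273, had 1.55 ± 0.322 and 1.97 ± 0.109 FPKM and did not pass (adjusted p = 0.371). LINC00461, the neural host of MIR9-2, was no member: it had 2 counts in 1 si-CyCoNP library and none in the other libraries.

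The coding neighbours were then examined, since their values were not used to choose the genes. A coding gene that was itself tested lay within 50 kb of 66 of the 109 LINC genes, and its log2 fold change had the sign of the LINC gene in 41 pairs (62.1%). For comparison the nearest tested coding neighbour within 50 kb had the same sign for 54.0% of 8347 coding genes. In 12 of the 66 pairs both genes had an adjusted p under 0.05, and both then moved the same way in all 12. Passing the test together with a neighbour was not confined to LINC genes. Of the 8347 coding genes, 598 passed together with their neighbour and had the same sign, which was 59.9% of those that passed together. A pair of coding genes can be counted from both sides, and all pairs share the libraries, so these shares are given without a test.

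Of the 12 pairs 3 were called for both genes, LINC01561 with PLPP4, LINC02593 with SAMD11 and LINC02600 with ADRA2C. The pairs of LINC01686 with RGS16, LINC02875 with TBX2, LINC01560 with ZNF41 and LINC02976 with CNPY3 held a called LINC gene. LINC02268 was paired with FBXO8, an F-box gene 16.3 kb away, which fell from 72.4 to 20.0 FPKM (log2 fold change -1.92, adjusted p = 1.28e-13), a larger change than that of LINC02268 itself. The remaining pairs were LINC02691 with KIF26A (log2 fold change of the coding gene -0.79), LINC02623 with BMS1 (0.89), LINC01694 with SLC19A1 (0.33) and LINC01234 with RBM19 (0.33). Over the 66 pairs Pearson's r was 0.496 and Spearman's rho 0.375, with LINC01561 and PLPP4 as the farthest point. Within 10 kb 22 of 37 pairs had the same sign, and all 6 in which both passed. With DESeq2 both genes passed in 7 pairs, all of the same sign.

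**Figure D3:**
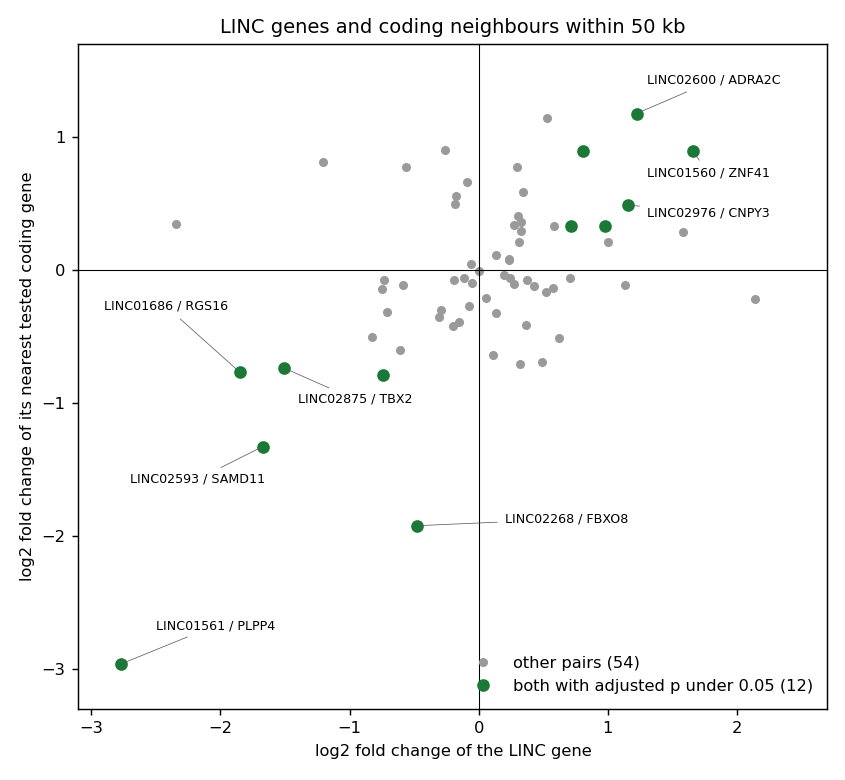
The log2 fold change of each LINC gene (horizontal) is plotted against that of its nearest tested coding gene within 50 kb (vertical) for 66 pairs. The 12 pairs in which both genes had an adjusted p under 0.05 all lie in the lower left or the upper right quadrant, from LINC01561 with PLPP4 at -2.77 and -2.96 to LINC02600 with ADRA2C at 1.22 and 1.18.

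The calls were then counted by overlap with other genes in the annotation. Of the 109 genes 57 overlapped no other gene, and 6 of them were called higher and 5 lower. Among the 52 that overlapped a gene on either strand 1 was called higher and 0 lower, with 10 of the 52 overlapping a coding gene. The median log2 fold change was 0.26 for the former and -0.04 for the latter. Over all genes tested 2.28% were called higher and 2.98% lower, and the split by overlap was not made for them. The 9 genes that share exonic bases with another gene on the same strand, whose counts are the least certain, held 0 of the calls.

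The calls were also counted by exon number and by position behind a coding gene. A single exon made up the canonical transcript of 21 genes, of which 3 were called higher and 3 lower, and the 88 spliced genes gave 4 and 2. Neither this split nor the one that follows was made over all genes tested, so no background share stands beside these counts. A start within 10 kb past the end of a tested coding gene on the same strand was found for 14 genes, of which 2 rose (LINC02976 and LINC02035) and 2 fell (LINC01561 and LINC02875). The coding gene before LINC02035 did not pass the test, whereas those before the other 3 did.

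Promoter sequence is shown for 4 called genes whose RefSeq start lay within 114 bases of the annotated start, 3 that fell and 1 that rose, to let their letters be compared. Each run is from RefSeq (GRCh38.p14) and reads 5′ to 3′ on the strand of the gene, from 250 bases before to 50 bases after the start. Capitals mark CCAAT or GGGCGG on either strand.
LINC01561, lower, chr10:120597699-120597998, plus strand: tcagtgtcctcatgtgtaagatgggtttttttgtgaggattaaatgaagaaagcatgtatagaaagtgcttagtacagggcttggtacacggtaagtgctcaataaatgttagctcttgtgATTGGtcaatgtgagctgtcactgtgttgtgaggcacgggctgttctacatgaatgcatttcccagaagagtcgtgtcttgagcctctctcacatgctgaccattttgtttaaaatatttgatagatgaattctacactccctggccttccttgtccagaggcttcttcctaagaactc
LINC01686, lower, chr1:182614890-182615189, plus strand: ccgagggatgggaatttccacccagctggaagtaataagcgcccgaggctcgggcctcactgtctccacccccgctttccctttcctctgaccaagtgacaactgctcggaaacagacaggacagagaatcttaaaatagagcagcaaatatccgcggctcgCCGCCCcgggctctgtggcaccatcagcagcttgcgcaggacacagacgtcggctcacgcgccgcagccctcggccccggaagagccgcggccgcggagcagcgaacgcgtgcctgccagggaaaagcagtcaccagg
LINC02875, lower, chr17:61411501-61411800, plus strand: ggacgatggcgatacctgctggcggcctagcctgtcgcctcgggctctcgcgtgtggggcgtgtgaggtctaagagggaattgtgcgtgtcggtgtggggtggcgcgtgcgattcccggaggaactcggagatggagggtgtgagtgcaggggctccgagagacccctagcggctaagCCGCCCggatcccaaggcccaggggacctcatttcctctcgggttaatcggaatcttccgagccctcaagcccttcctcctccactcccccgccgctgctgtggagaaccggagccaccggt
LINC01783, higher, chr1:16535603-16535902, minus strand: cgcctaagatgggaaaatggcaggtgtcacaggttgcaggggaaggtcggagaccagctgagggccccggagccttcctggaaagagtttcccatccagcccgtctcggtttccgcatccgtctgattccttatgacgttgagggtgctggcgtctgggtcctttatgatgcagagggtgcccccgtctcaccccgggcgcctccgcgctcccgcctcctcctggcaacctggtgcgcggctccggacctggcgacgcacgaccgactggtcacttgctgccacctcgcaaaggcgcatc

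The promoters of the genes that fell were not alike. LINC01686 and LINC02875 had 26 CpG dinucleotides each and 1 GGGCGG, the core of a GC box, while LINC01561 had 3 CpG and 1 CCAAT box. LINC01783, which rose, had 24 CpG and none of the letters searched. A promoter was found for 72 of the 109 genes, with a median of 16.5 CpG against 14 over 27305 promoters, 1 for each symbol. GGGCGG stood in 51.4% of the member promoters against 44.6% of all, CCAAT in 41.7% against 35.7%, and TATAAA in 15.3% against 11.95%. The E-box CACGTG was in 12.5% against 7.44%, the homeodomain core TAATTA in 8.33% against 4.98%, and the cyclic AMP response element TGACGTCA in 4.17% against 1.98%. AGGTCA, the half-site of retinoic acid receptors, was in 12.5% against 13.9%, and in 1 of the 9 called promoters, that of LINC00871, whose RefSeq start lies far inside the gene. Both strands were searched, and a match is a description of the letters only.

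The study predicted several sites for miR-4492 on CyCoNP with a prediction program, and tested the binding with reporter constructs and RNA pull-down. Here only exact matches to the letters complementary to the seed of miR-4492 were looked for in the RNAs themselves. That is another criterion, so the number of matches is not the number of sites in the study. The mature microRNA is shown with its seed, bases 2 to 8, in capitals, followed by the matches to the seed (CCAGCCC, capitals) with the bases around them in LINC02381 and in LINC02593, the called gene with the most matches. Coordinates are those of the capitals in GRCh38, and LINC02593 lies on the minus strand.
hsa-miR-4492: gGGGCUGGgcgcgcgcc
LINC02381, base 187 of 2792, chr12:54126377-54126383: tgtagcccCCAGCCCgggcgcct
LINC02593, base 550 of 1389, chr1:917703-917709: cctggggcCCAGCCCgggcggca
LINC02593, base 631, chr1:917622-917628: ggcactccCCAGCCCacacctgc
LINC02593, base 717, chr1:917536-917542: gaagtctgCCAGCCCaatttatg
LINC02593, base 876, chr1:917377-917383: ccctgggcCCAGCCCaggcaaga

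Such a match was present in the canonical transcript of 30 of the 109 genes (27.5%), against 38.0% of all genes tested and 20.3% of the 1448 lncRNA genes tested. LINC transcripts were shorter, with a median of 1376 bases against 2622, and per kilobase the matches were about as frequent, at 0.234 in the LINC genes and 0.237 over all genes tested. Of the 30 genes with a match 3 were called higher (LINC01783, LINC02035 and LINC02600) and 1 lower (LINC02593). Of the 79 without one 4 were called higher and 4 lower. The median log2 fold change was -0.03 with a match and 0.14 without. No test was made of this difference, and the presence of the letters does not show that the microRNA binds.

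The lncRNA genes as a whole had more genes called higher than lower, 54 against 29 of 1448, where protein-coding genes had 235 against 378 of 10511. The LINC genes described here gave 7 of the 54 and 5 of the 29, or 13.0% and 17.2%, and so contributed 2 to the excess of 25. With LINC02381 and the LINC genes of lower mean that were tested, and without those annotated as pseudogenes, the figures were 9 and 6 of 123. The lncRNA genes without a name gave 26 against 14 of 833, or 48.1% of those called higher. Genes named as divergent transcripts (-DT), which start opposite to a coding gene, gave 6 against 1 of 107, and antisense genes (-AS) gave 7 against 3 of 218. The excess was larger in some other fits and smaller in others. With library totals alone 71 lncRNA genes were called higher and 24 lower, and 61 and 34 without si-SCR replicate 3. Upper quartile scaling again gave 54 and 29. DESeq2 called 27 lncRNA genes higher and 17 lower, of which LINC genes gave 4 and 4, genes without a name 9 and 8, divergent transcripts 3 and 0 and antisense genes 4 and 1. With glmTreat 5 lncRNA genes were higher and 4 lower.

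The name classes differed in how often a gene was called. Among LINC genes 6.42% were called higher and 4.59% lower, against 3.21% and 1.38% of antisense genes and 5.61% and 0.935% of divergent transcripts. The filters were unlike: LINC members needed a mean of at least 1 FPKM over all 6 libraries, the other classes only in either group. Under the filter of the other classes, LINC genes of lncRNA type, with LINC02381, gave 7.32% and 4.88% of 123. Small RNA host genes gave 1 and 0 of 43, and lncRNA genes with other names 5 and 5 of 124. The median summed count was 149 in the LINC genes, 107.5 in antisense genes, 57 in divergent transcripts and 29 in genes without a name, against 1031 in coding genes, so the power to call a gene was not equal between them. A list of 22 well-known lncRNAs with other names had 21 tested, of which 1 was called higher and 0 lower at the same thresholds, and 9 higher and 4 lower by the adjusted p alone.

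**Figure D4:**
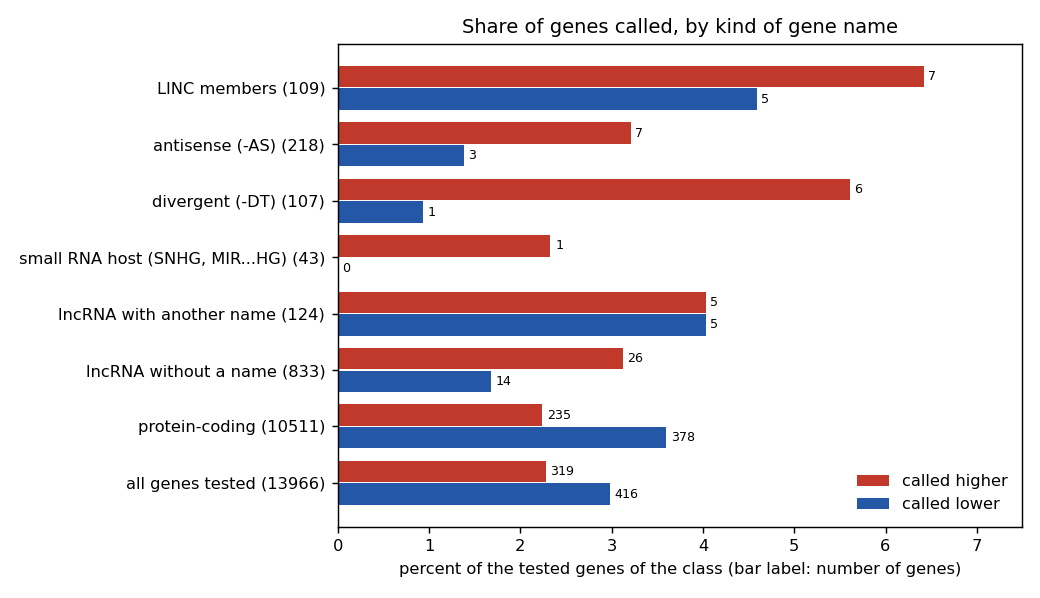
Bars give the percentage of tested genes of each kind of name that were called higher (red) or lower (blue) in si-CyCoNP, starting at 0, with the number of genes at the end of each bar and the number tested in brackets. LINC members stand at 6.42% and 4.59%, against 2.28% and 2.98% of all genes tested. LINC members had a mean of at least 1 FPKM over all 6 libraries, whereas the other classes needed it only in either group.

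Depth set what could be seen in single genes. Among the 41 LINC genes with under 100 summed counts the SE had a median of 0.626, and 3 were called higher and 1 lower (9.76% called). Of all genes tested in this range 4.06% were called, but their median SE was larger, at 0.909. The 60 genes with 100 to under 1000 counts had a median SE of 0.233 and gave 4 and 4 (13.3%). In the same range 7.38% of all genes tested were called, with a median SE of 0.187. The 8 genes with 1000 or more had a median SE of 0.118, and by the adjusted p alone 2 were higher and 0 lower, but with the fold threshold 0 were called. Among all genes tested with 1000 or more counts (median SE 0.103) 3.77% were called, and 42.5% passed the adjusted p, against 25.0% of these 8 LINC genes. The calls thus lay between 36 and 452 summed counts, and 11 genes had at most 3 counts in every library of 1 group, LINC00115 alone among them being called.

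**Figure D5:**
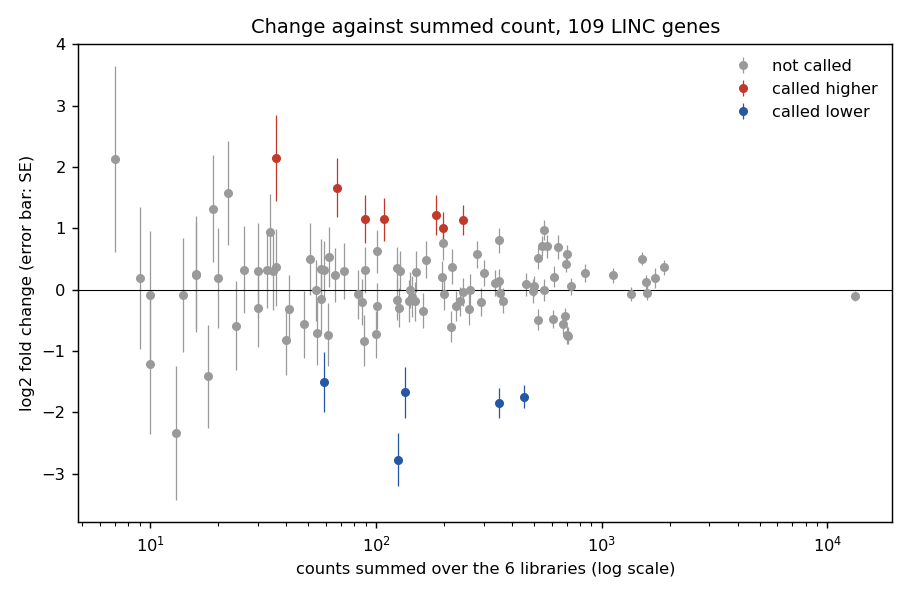
The log2 fold change with its SE is plotted against the counts summed over the 6 libraries (log scale) for the 109 LINC genes. Error bars shorten from a median of 0.626 under 100 counts to 0.118 from 1000 counts on, and the point at 13306 counts is LINC00632.

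Just above a mean of 1 FPKM were LINC00237 (1.004), LINC03011 (1.01) and LINC01775 (1.015), with at most 15 counts in a library. Just below were LINC02693 (0.973), LINC00638 (0.987) and LINC02037 (0.988). None of the 6 was called. With the bound at 2 FPKM 51 genes were left, of which 4 were called higher and 3 lower.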

How the data were processed

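RNA from 3 si-SCR and 3 si-CyCoNP libraries of SK-N-BE cells was analysed, with groups and replicate numbers from the sample titles. The deposited counts were made by the authors with STAR 2.7.7a (unique fragments per Ensembl gene, GRCh38, stranded total RNA kit) after Trimmomatic 0.39, cutadapt 3.2 and removal of ribosomal reads with Bowtie2 2.4.2. The deposited FPKM were computed by the authors from these counts, gene length and library total. Multimapping fragments were dropped, so genes with near copies are undercounted, and counts carry no molecular identifiers.

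Genes with a group mean of at least 1 FPKM (13966) were compared with edgeR 4.0.16 (TMM, quasi-likelihood test, Benjamini-Hochberg adjustment over all tested) in R 4.3.3. A call needed a log2 fold change beyond 1 at an adjusted p below 0.05. The alternatives were DESeq2 1.42.0, limma 3.58.1 on log2(FPKM + 1) and log2(FPKM + 0.1), other scalings and filters, a replicate block and leaving out each library. Named genes were LINC02381, all called members, the 10 highest, hosts of small RNAs, those nearest to the FPKM bound, and the nearest coding neighbour of called members within 50 kb. Further members past the adjusted p, and further neighbours, were named after their values were seen. Members, lists and tests were chosen with earlier results of these data known. Gene positions, overlaps and canonical transcripts are from GENCODE v44 (GRCh38), which is newer than the counted annotation: 86 of 109 genes had the same exonic length within 1%. Of the identifiers 60357 matched a symbol. RefSeq gave promoters and the microRNA. SDs are over 3 libraries. The values of some genes are not reported here.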

Additional observations from a re-analysis of the deposited data

How the results depend on the processing

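LINC02381 kept its direction and its call in all 15 other fits, and so did LINC01561, LINC01686, LINC00682, LINC01783 and LINC02035 with respect to the adjusted p. The 12 called genes kept their side of the adjusted p in 158 of 179 comparisons with other fits, lost it in 21 and reversed in 0, and the 17 genes past the adjusted p but not the fold lost it in 49 of 255. The number called higher was 4 with DESeq2, 1 on log2(FPKM + 1), 4 on log2(FPKM + 0.1), 18 with no minimum fold change, 0 with glmTreat, 4 with the member rule at 2 FPKM and 3 to 7 when 1 library was left out, 3 without si-SCR replicate 1. The number called lower was 3 on log2(FPKM + 1), 11 with no minimum fold change, 3 with glmTreat, 3 with the member rule at 2 FPKM and 4 to 5 when 1 library was left out. The median log2 fold change of the members was 0.16 with library totals alone, where the median of all genes was 0.07, 0.0263 with the default filter of edgeR, which left 80 members, 0.19 with the member rule at 2 FPKM, and 0.03 to 0.11 when 1 library was left out. Pairs of a LINC gene and its neighbour that both passed, with the same sign, numbered 7 with DESeq2, 6 within 10 kb and 8 to 12 when 1 library was left out. The sign of 3 genes that did not pass the test turned. LINC01116 turned to 0.0147 with library totals alone and to 0.0219 and 0.0228 on log2(FPKM + 1) and log2(FPKM + 0.1), and ranged from -0.159 to 0.0726 with 1 library left out. LINC01775 turned to 0.0289 and 0.0805 on the same scales and ranged from -0.324 to 0.476 with 1 library left out. In the same way LINC01695 ranged from -0.0494 to 0.385. The causes were not tested. Whether replicate numbers pair the libraries was not settled. Deviations of same-numbered libraries correlated weakly, at 0.0907, 0.0727 and 0.108, and those of differently numbered ones at -0.0666 to -0.0229. Each library thus correlated best with its own number. With the replicate block 7 LINC genes were higher and 5 lower, the same genes as without it, and the median was 0.08. Counts limit the low genes most: 41 of the 109 had under 100 counts in all.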
